A study of Mus musculus with 16 samples.

Results

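The miRNAs encoded inside the Hox gene clusters, mmu-miR-10a, mmu-miR-10b, mmu-miR-196a and mmu-miR-196b, were followed in mouse sciatic nerves lacking Dicer in Schwann cells. The members were chosen by name, which gave 4 of the 650 miRNA names on the array and 10 of its 1857 probes. Mutants carried 2 floxed Dicer1 alleles and the Cre transgene (Dicer fl/fl Dhh-Cre+). Controls carried the same transgene with 1 floxed and 1 wild-type allele (Dicer wt/fl Dhh-Cre+), so every animal in the series was Cre-positive and had at least 1 floxed allele of the strain Dicer1tm1Bdh/J. Nerves were taken at embryonic day 17 (E17) or postnatal day 4 (P4), and total RNA of each animal was hybridized to its own Agilent array, with 4 arrays in each of the 4 groups and 16 in all. Cre is driven by the desert hedgehog promoter, which the study describes as specific to Schwann cells. Other cells of the nerve would thus be expected to keep Dicer, although recombination was not measured on these arrays. By PCR the study found the recombined allele in mutant nerves, and Dicer mRNA was depleted, at E17 and at P4. In whole nerve fewer cells of a type cannot be told apart from less miRNA per cell.

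Dicer is the RNase that cuts miRNA hairpins into the mature strand, so a cell without it is expected to run out of mature miRNAs as the existing ones decay, while transcription of the miRNA genes can continue. The miR-10 and miR-196 genes sit between Hox genes and, like their neighbours, are expressed according to position along the body axis, which makes them useful as positional marks of trunk tissue. Both families are known to target Hox mRNAs themselves, and miR-196 is the textbook example of an animal miRNA that directs cleavage of its target, Hoxb8.

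The mature sequences were read from RefSeq, where all 4 array names, which give no arm, were matched to the 5p arm, the array marking the other strand by an asterisk. They are shown because each pair shares its seed (bases 2 to 8, in capitals, the part that selects targets) and because a single base separates the members of a pair, which matters for what a hybridization probe can resolve.
miR-10a: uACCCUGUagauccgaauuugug
miR-10b: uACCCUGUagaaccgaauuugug
miR-196a: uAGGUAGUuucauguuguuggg
miR-196b: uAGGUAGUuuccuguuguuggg

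Counted from 1 at the 5′ end, miR-10a and miR-10b differ by U12A over 23 bases, and miR-196a and miR-196b differ by A12C over 22 bases. No other of the 1679 mature mouse names in the RefSeq table has either seed, so each family holds 2 members. The difference lies outside the seed in both pairs. Cross-hybridization of a probe with the other member of its pair was not tested, since no probe sequence was analysed here.

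The 4 miRNAs come from 5 genes in the 4 Hox clusters. On GRCm38.p6, mature miR-10a lies at chr11:96317186-96317208 on the plus strand, between Hoxb5 and Hoxb4 in the HoxB cluster and within the annotated span of Hoxb3. Mature miR-10b lies at chr2:74726074-74726096 on the plus strand in the HoxD cluster, within the annotated spans of Hoxd3 and Hoxd4. These are the paralogous positions of the HoxB and HoxD clusters, next to the group 4 genes. miR-196a is made from 2 genes, 1 at chr11:96265187-96265208 between Hoxb13 and Hoxb9 and 1 at chr15:102973365-102973386 between Hoxc10 and Hoxc9, both on the plus strand. Their mature products are identical, so the array cannot separate the HoxB copy from the HoxC copy. miR-196b lies at chr6:52230129-52230150 on the minus strand, between Hoxa9 and Hoxa10. Whether these positions are exonic or intronic was not analysed here. Mir10a and 1 of the 2 miR-196a genes are thus neighbours in the same cluster, whereas the pairs with a common seed lie on different chromosomes.

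All 4 miRNAs were detected on all 16 arrays, and all of their 10 probes stood well above background on every array. Values are given as the log2 of the median spot signal, without background subtraction, after quantile normalization. Quantile normalization makes the distribution of signals the same on every array, so that a difference is relative to the other miRNAs on the array. A miRNA is described by its brightest probe unless said otherwise. Groups were compared by limma over 681 probes of 281 expressed miRNAs, and a probe was called when its Benjamini-Hochberg adjusted p was 0.05 or less and its log2 difference was 0.5 or more in either direction. A miRNA counted as called through any called probe, provided its probes did not disagree in direction. The within-group SD of the 4 members was between 0.158 and 0.204 on the log2 scale, against a median of 0.126 over all expressed miRNAs. The normalization matters in these nerves, because the summed miRNA signal per array in P4 mutants was 51.3% of that in P4 controls (exact two-sided permutation test, n = 4 per group, p = 0.0286, the smallest this design allows), and 88.7% at E17 (p = 0.4). On the log2 scale this is -0.96 at P4. The median log2 signal of expressed miRNAs, taken without background subtraction, differed by -0.33 there (exact permutation p = 0.0286), a smaller gap. The background-subtracted signals per miRNA had a median difference of -0.45 at P4. No spot was saturated. All E17 arrays were on 1 slide and all P4 arrays on the other, so age and slide cannot be told apart, whereas mutants and controls shared each slide.

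On the normalized scale miR-10a was lower in mutants than in controls at both ages, and at P4 it was the only member of the 4 that was. At P4 the 4 controls measured 7.79, 7.71, 7.86 and 8.06 and the 4 mutants 7.70, 7.58, 7.32 and 7.48. At E17 the controls measured 8.37, 7.87, 7.96 and 7.76 and the mutants 7.66, 7.62, 7.45 and 7.61. The groups did not overlap at either age, although at P4 the highest mutant came close to the lowest control. Such separation was found for 48.4% of the expressed miRNAs at P4 and 24.9% at E17.

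The difference between mutants and controls in miR-10a was -0.34 at P4 (SE 0.119, limma adjusted p = 0.0318) and -0.40 at E17 (SE 0.119, limma adjusted p = 0.0445). Its second probe gave -0.43 (limma adjusted p = 0.00117) and -0.38 (limma adjusted p = 0.0177). Both probes thus passed the p-value limit at both ages, as did 43.8% of all probes tested at P4 and 10.3% at E17, and neither reached a difference of 0.5, so miR-10a was not called. Passing that limit rested on single arrays at both ages. At P4 the limma adjusted p of the brightest probe ran up to 0.101 over the 16 arrays left out in turn, and was over 0.05 in 4 of them (without mutant replicate 3 or 4 or control replicate 3 or 4). At E17, without E17 control replicate 1, the highest array, the difference was -0.28, and over the 16 arrays its limma adjusted p ran from 0.0205 to 0.125 and was over 0.05 in 11 of them.

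miR-10b, which has the same seed as miR-10a, showed another pattern. At P4 the controls measured 8.14, 8.27, 7.98 and 8.20 and the mutants 8.86, 8.79, 8.15 and 8.69, so that 3 mutants lay above every control and mutant replicate 3 lay among them. The difference was 0.47 (SE 0.121, limma adjusted p = 0.00563), just under the limit of 0.5, and its second probe gave 0.31 (limma adjusted p = 0.0164). Without mutant replicate 3 the difference at P4 was 0.63, and without control replicate 2 it was 0.51. At E17 the controls measured 8.63, 8.53, 8.54 and 8.46 and the mutants 8.63, 8.49, 8.51 and 8.66. These ranges coincided, with a difference of 0.03 (SE 0.121, limma adjusted p = 0.898).

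miR-196a was the only member called between the genotypes, and it was higher in P4 mutants. The P4 controls measured 8.08, 8.19, 8.03 and 8.28 and the P4 mutants 8.87, 9.14, 8.59 and 8.98, with no overlap. The difference was 0.75 (SE 0.136, limma adjusted p = 0.000432). Of its 4 probes, 3 were called (14.5% of all probes tested), with differences of 0.56, 0.76 and 0.75, and the dimmest probe gave 0.23 (limma adjusted p = 0.00344). At E17 the controls measured 8.51, 8.82, 9.14 and 8.60 and the mutants 9.0005, 8.84, 8.78 and 9.10. The mutants fell inside the range of the controls there, with a difference of 0.16 (SE 0.136, limma adjusted p = 0.482).

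On this scale miR-196b followed miR-196a with smaller differences. The P4 controls measured 7.36, 7.42, 7.23 and 7.23 and the P4 mutants 7.71, 7.91, 7.60 and 7.84, again with no overlap. The difference was 0.46 (SE 0.105, limma adjusted p = 0.00266), under the limit of 0.5, and the second probe gave 0.21 (limma adjusted p = 0.000589). With background-subtracted signals the P4 differences were 0.65 for miR-196b, past the limit, and 0.87 for miR-196a. Scaled to the 75th percentile of detected probes, they were 0.81 for miR-196b and 0.89 for miR-196a. At E17 the controls measured 7.40, 7.72, 7.91 and 7.67 and the mutants 7.95, 7.59, 7.66 and 7.84, which overlapped (difference 0.08, SE 0.105, limma adjusted p = 0.685).

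Between the genotypes at P4, 1 of the 4 members was therefore called, against 21% of all expressed miRNAs (10.3% higher and 10.7% lower). That share is near the background and is not a result about the family as a whole. All 10 probes passed the p-value limit at P4, 8 of them higher and the 2 of miR-10a lower, where 43.8% of all probes tested passed it, and the probes of a miRNA share its RNA. The median difference of the 4 members at P4 was 0.47, beside 0.06 for all expressed miRNAs. At E17 none of the 4 was called by limma, against 6.05% of all expressed miRNAs. Only miR-10a had an unadjusted p under 0.05 there. No member probe differed by 0.5 at E17, so the methods' t-test, on the same differences and size limit, could call none either.

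**Figure D1:**
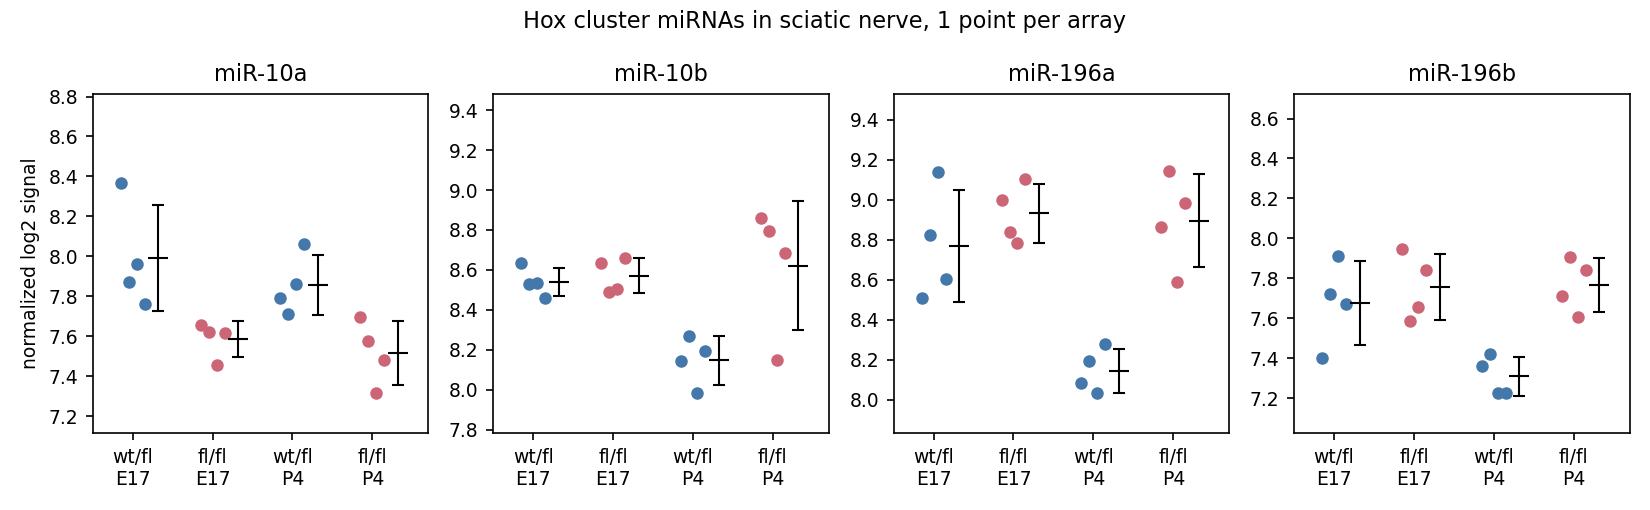
Normalized log2 signal of the brightest probe of each miRNA (vertical axes, which differ between panels in position but not in length) on each of the 16 arrays, with controls in blue, mutants in red and the mean ± SD (n = 4) as bars. miR-10a is lower in fl/fl than in wt/fl nerves at both ages, whereas for miR-10b, miR-196a and miR-196b the wt/fl group at P4, with means of 8.15, 8.15 and 7.31, lies below the other groups.

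The order of the 4 groups differed accordingly. For miR-10a the means ran from 7.52 ± 0.16 in P4 mutants and 7.59 ± 0.09 in E17 mutants to 7.86 ± 0.15 in P4 controls and 7.99 ± 0.26 in E17 controls (mean ± SD, n = 4 each). Neighbours of the same genotype were closer to each other than their SD. For the other members P4 controls came lowest, at 8.15 ± 0.12 for miR-10b, 8.15 ± 0.11 for miR-196a and 7.31 ± 0.10 for miR-196b, and the remaining groups lay together. For miR-196a these were 8.77 ± 0.28 in E17 controls, 8.89 ± 0.23 in P4 mutants and 8.93 ± 0.15 in E17 mutants, which did not differ beyond their spread. For miR-196b they were 7.68 ± 0.21, 7.77 ± 0.13 and 7.76 ± 0.17 in the same groups. For miR-10b they were 8.54 ± 0.07, 8.62 ± 0.32 and 8.57 ± 0.09.

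From E17 to P4 in controls, miR-196a fell by 0.62 on the log2 scale (SE 0.136, limma adjusted p = 0.00247) and was the only member called, against 20.3% of all expressed miRNAs (12.1% lower). Every P4 control was below every E17 control, which 19.9% of the expressed miRNAs showed. Its call depended on E17 control replicate 3, the highest array, without which the difference was -0.498 and no probe reached the limit. Of its 4 probes, only the brightest was called (12.8% of all probes tested). miR-10b differed by -0.39 (SE 0.121, limma adjusted p = 0.0188) and miR-196b by -0.37 (SE 0.105, limma adjusted p = 0.0128), both under the size limit. Without P4 control replicate 3, miR-10b was at -0.34 with a limma adjusted p of 0.0593. For miR-10a the difference was -0.13 (SE 0.119, limma adjusted p = 0.413), with 0.05 at its second probe.

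In mutants the same interval left all 4 near 0 on the normalized scale. The differences between P4 and E17 were -0.07 for miR-10a, 0.05 for miR-10b, -0.04 for miR-196a and 0.01 for miR-196b, with SEs between 0.105 and 0.136. None was called by limma, against 10.7% of all expressed miRNAs. None of the 4 brightest probes had an unadjusted p under 0.05, although 2 of the 10 probes did, and the methods' t-test called none. Other scalings took the age differences in mutants up to 0.43, 0.76, 0.69 and 0.61, in the same order of miRNAs. The background-subtracted signals per miRNA, without normalization, had a median difference of 0.57 in this comparison. The comparisons at P4 and in controls use the same P4 control arrays, so the higher values in mutants and the lower values with age are not independent observations.

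Whether the effect of genotype itself differed between the ages was tested as an interaction. It was 0.59 for miR-196a (SE 0.192, limma adjusted p = 0.0558), 0.44 for miR-10b (SE 0.171, limma adjusted p = 0.106), 0.38 for miR-196b (SE 0.149, limma adjusted p = 0.112) and 0.06 for miR-10a (SE 0.168, limma adjusted p = 0.860). None of the 4 was called, against 9.61% of all expressed miRNAs, and 3 of the 4 had an unadjusted p under 0.05. The second probes of miR-10b (0.44, limma adjusted p = 0.0439) and miR-196b (0.21, limma adjusted p = 0.0229) passed the p-value limit without reaching 0.5. With the column of the slide as a block, miR-196a was called, with the same difference of 0.59 and a limma adjusted p of 0.00411. Without normalization between arrays all 4 interactions were below 0. They were -0.048 for miR-196a, -0.20 for miR-10b, -0.15 for miR-196b and -0.72 for miR-10a.

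**Figure D2:**
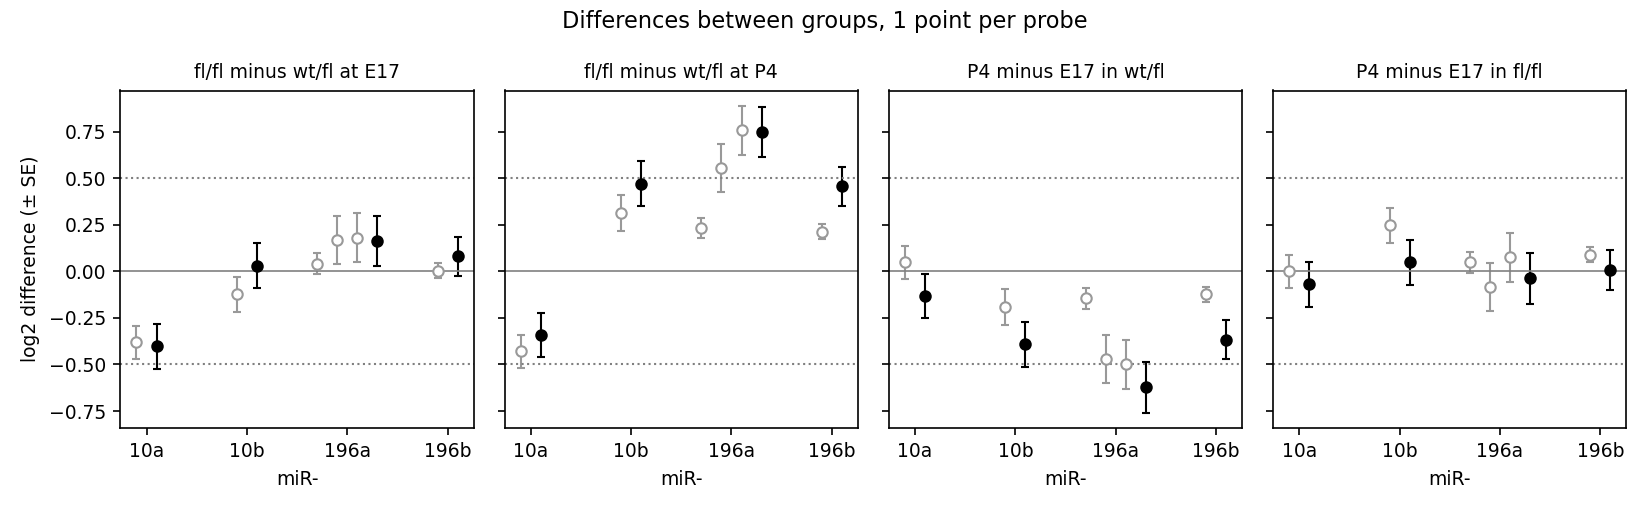
Log2 difference ± SE (vertical axis) for each of the 10 probes in 4 comparisons, with the brightest probe of each miRNA filled and the dotted lines at 0.5 and -0.5. Both probes of miR-10a lie below 0 in mutants at both ages, the 8 other probes lie above 0 at P4, and values in the comparison of ages within fl/fl lie between -0.08 and 0.25.

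A ratio of 2 miRNAs within an array does not change when an array is scaled by a factor, so the paralogs were also set against one another. The ratios were taken on the quantile-normalized signals. Quantile normalization is not a single factor per array, so these ratios still depend on it. Only changes of a ratio between groups carry meaning here, since probes differ in brightness for the same amount of RNA. The log2 ratio of miR-10a to miR-10b was -0.35, -0.56, -0.12 and -0.13 in the P4 controls and -1.16, -1.21, -0.83 and -1.20 in the P4 mutants. At E17 it was -0.27, -0.66, -0.58 and -0.70 in controls and -0.97, -0.87, -1.05 and -1.04 in mutants. Every mutant lay below every control at both ages. Less miR-10a relative to miR-10b was thus measured in all 8 mutants than in any of the 8 controls. How often the ratios of other miRNA pairs separate in this way was not examined. Single miRNAs did so in 48.4% at P4 and 24.9% at E17.

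At P4 the mean ratio of controls was -0.29 ± 0.21 and that of mutants -1.10 ± 0.18 (SD, n = 4 each), a difference of -0.81 (exact two-sided permutation test, p = 0.0286). At E17 it was -0.55 ± 0.20 and -0.98 ± 0.09 (SD, n = 4 each), a difference of -0.43 (exact two-sided permutation test, p = 0.0286). These are the smallest p-values that 4 against 4 arrays allow. Adjusted over the 8 ratio comparisons made they were 0.114, which misses the limit of 0.05. Over 5 other choices of signal, scaling or probes and over each array left out, the difference stayed between -0.63 and -1.05 at P4 and between -0.28 and -0.62 at E17. With age the ratio differed by 0.26 in controls (exact permutation p = 0.114, n = 4 per group) and by -0.12 in mutants (exact permutation p = 0.286, n = 4 per group).

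The ratio of miR-196a to miR-196b varied less. It was 0.72, 0.77, 0.80 and 1.05 in P4 controls and 1.15, 1.23, 0.99 and 1.14 in P4 mutants, which overlapped by 1 array on each side. The difference was 0.29 (exact two-sided permutation test, n = 4 per group, p = 0.0571, adjusted p = 0.114), and at E17 it was 0.08 (exact permutation p = 0.371, n = 4 per group).

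**Figure D3:**
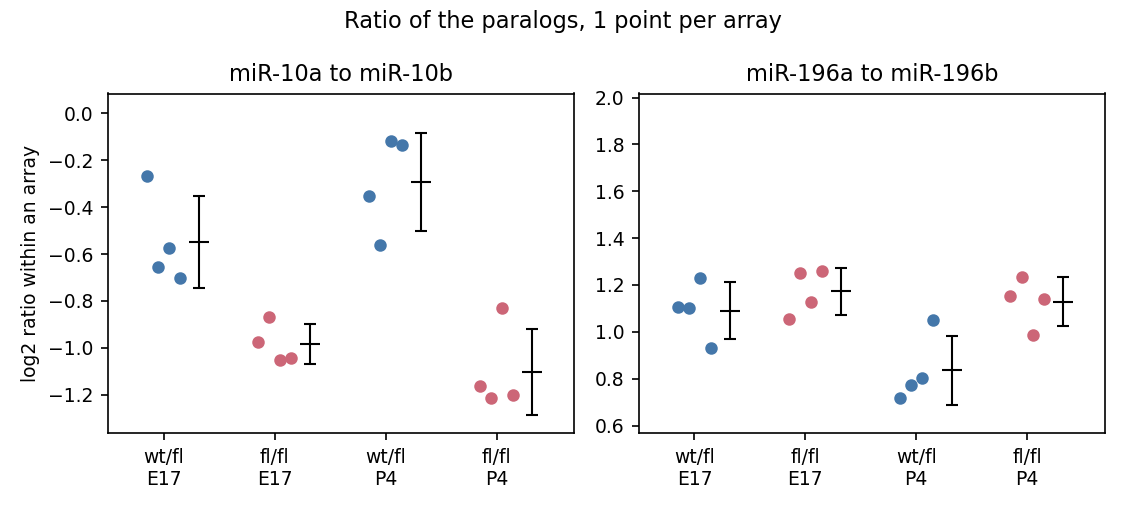
Log2 ratio of the brightest probes of each pair within an array (vertical axes of equal length), with controls in blue, mutants in red and the mean ± SD (n = 4) as bars. The ratio of miR-10a to miR-10b is between -1.21 and -0.83 in the 8 fl/fl arrays and between -0.70 and -0.12 in the 8 wt/fl arrays, and the ratio of miR-196a to miR-196b is lowest in wt/fl at P4, with a mean of 0.84.

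Part of the directions of the single miRNAs depended on the scaling. Between the genotypes miR-10a was lower at both ages in all 36 other settings tried, and miR-196a was higher at P4 in all 36. The smallest difference of miR-196a was 0.0064 (SE 0.170), without normalization between arrays, which is well within its error. Many of the settings, such as other tests, limits, filters or a left-out array of the other age, could not move a difference. The directions of miR-10b and miR-196b at both ages and of miR-196a at E17 turned with the scaling. So did those of all 4 with age in controls, with age in mutants and in the interaction. The background-subtracted signal that the scanner software gives per miRNA, with no normalization, refers to equal input of total RNA. On this scale miR-10a measured 254.9, 292.8, 327.3 and 303.5 in P4 controls and 122.2, 127.4, 82.9 and 110.6 in P4 mutants, a wide gap. miR-10b measured 331.7, 492.2, 351.8 and 322.6 in P4 controls and 319.9, 398.6, 210.4 and 314.3 in P4 mutants, which overlapped. miR-196a measured 324.3, 490.3, 375.0 and 347.3 in P4 controls and 320.8, 537.7, 353.1 and 403.0 in P4 mutants, and miR-196b ranged from 112.6 to 196.8 and from 112.3 to 166.2.

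Without normalization, then, miR-10a was the member that changed between the genotypes at P4, with a log2 difference of -1.42 (limma adjusted p = 2.1e-05). On this scale 119 of the 281 expressed miRNAs were called lower at P4 and 7 higher. miR-10b, miR-196a and miR-196b had values of -0.28, 0.06 and -0.09, none of them called, while the summed signal of all miRNAs differed by -0.96. At E17 miR-10a was 184.3, 125.2, 99.8 and 140.6 in controls and 75.5, 99.3, 75.5 and 77.4 in mutants on this scale (log2 difference -0.72, limma adjusted p = 0.0504). As shares of the summed signal, the same data put miR-196a higher in P4 mutants and miR-10a still lower. miR-196a made up 0.251% to 0.318% of the summed signal in P4 controls and 0.493% to 0.643% in P4 mutants, and miR-10a 0.190% to 0.248% and 0.146% to 0.188%.

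With age, the unnormalized signals of all 4 members were higher in P4 than in E17 controls, the opposite direction to the normalized values. The differences were 1.13 for miR-10a, 0.86 for miR-10b, 0.64 for miR-196a and 0.63 for miR-196b. All 4 were called higher, where 184 of the 281 expressed miRNAs were called higher and 13 lower. With most miRNAs called higher, these calls are not a result about the members. The summed signal was higher by 1.46 on the same log2 scale, so the members gained less than the sum. The median difference of the expressed miRNAs on this scale was 1.01, below that of miR-10a and above those of the other members. Across all 37 settings tried at P4, miR-10a had the lowest and miR-196a the highest difference between the genotypes among the 4. Many of these settings could not move a difference at P4.

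**Figure D4:**
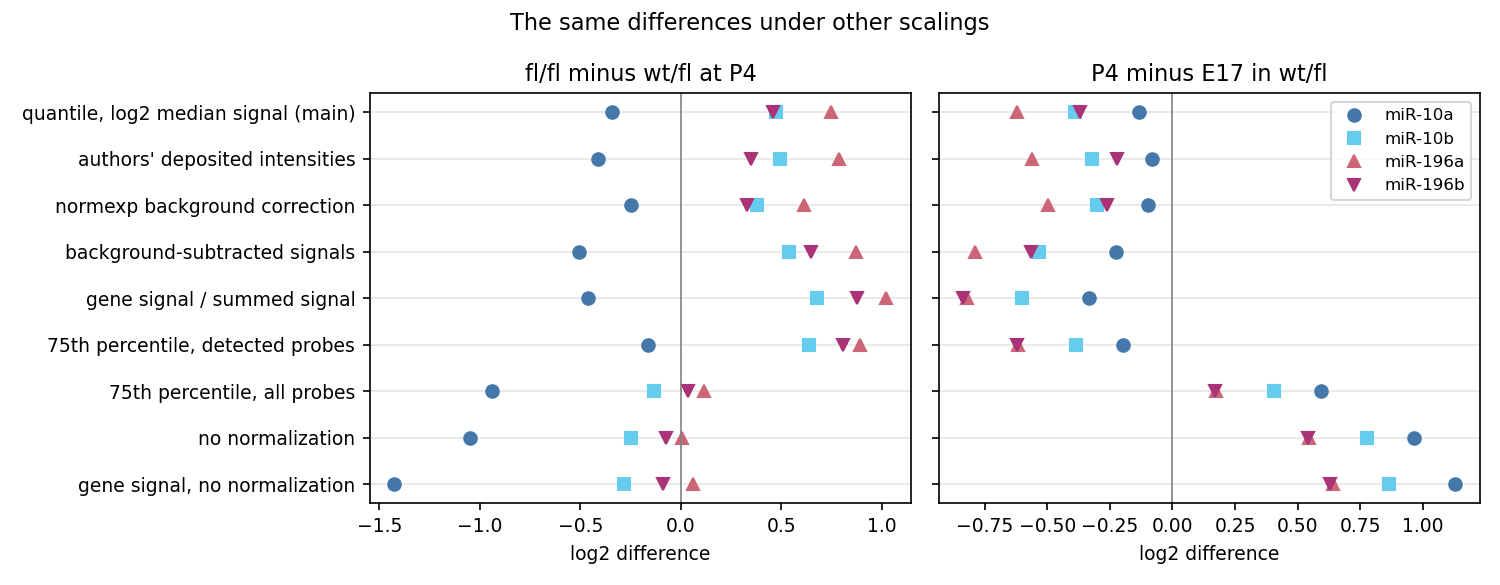
Log2 difference of each miRNA (horizontal axis) under 9 ways of scaling or background correction, for mutants against controls at P4 (left) and for P4 against E17 in controls (right). The zero point moves with the scaling, from 0.75 to 0.06 for miR-196a between the first and last rows on the left, while miR-10a stays lowest and miR-196a highest on the left.

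The nearest relatives by sequence were examined next. In miR-100, bases 6 to 16 equal bases 7 to 17 of miR-10a, a stretch of 11 bases, and miR-99a and miR-99b each share 10 bases with miR-10a or miR-10b. In let-7a, bases 3 to 9 equal bases 2 to 8 of miR-196, a stretch of 7 bases that holds its whole seed. In let-7e, bases 3 to 8 equal bases 2 to 7 of miR-196. Because of the shift, none of these relatives has the seed of the Hox cluster miRNAs at bases 2 to 8. The sequences of miR-100 and let-7e are shown for this reason.
miR-100: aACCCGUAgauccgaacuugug
let-7e: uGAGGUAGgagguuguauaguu

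All 3 of miR-99a, miR-99b and miR-100 were expressed. miR-100 was lower in P4 mutants by -0.55 (SE 0.0922, limma adjusted p = 0.000234), and in controls miR-100 rose from E17 to P4 by 0.87 (limma adjusted p = 5.0e-06) and miR-99a by 0.64 (limma adjusted p = 0.000462). None of the 3 was called at E17. The unnormalized summed signal of these 3 had the same directions, with 1859 to 2275 in P4 controls, 721.4 to 1144 in P4 mutants and 358.5 to 562.7 in E17 controls. All 9 of let-7a to let-7i and miR-98 were expressed. At P4 only let-7f was called, lower in mutants by -0.55 (SE 0.206, limma adjusted p = 0.0429). At E17 let-7b, let-7d and let-7i were called lower, let-7d by -0.78 at its brightest probe (limma adjusted p = 0.0197). The calls of let-7b and let-7i at E17 rest on dimmer probes. With age in controls, let-7e was the only one of the 9 called, with -0.60 (SE 0.171, limma adjusted p = 0.0128), while the unnormalized summed signal of the 9 was higher at P4 (43606 to 53251) than at E17 (10847 to 14754).

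The other strands and neighbours in the Hox clusters were at or near background. Of miR-10a*, miR-10b*, miR-196a*, miR-615-3p and miR-615-5p, the asterisk marking the passenger strand of the hairpin, only miR-10a* and miR-615-3p were expressed and none was called in any of the 5 comparisons. miR-615, whose gene lies within Hoxc5, had an unnormalized 3p signal between 3.24 and 11.05 on all 16 arrays. In P4 mutants against controls it differed by 0.01 (SE 0.0339, limma adjusted p = 0.778).

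The miRNAs whose normalized signals ran most like each member over the 16 arrays were ranked by Pearson correlation of the brightest probes, as a description of arrays that share group, slide and normalization. The most similar to miR-196a was miR-196b (r = 0.937), the first of 280, and beyond the members miR-300 (r = 0.920), miR-409-3p (0.907) and miR-199a-3p (0.906). For miR-196b they were miR-369-5p (0.8998), miR-337-5p (0.888) and miR-214 (0.873), and for miR-10b miR-487b (0.865), let-7e (0.856) and miR-300 (0.844). Of these, miR-300, miR-409, miR-369, miR-337 and miR-487b are all encoded on chromosome 12. The share of chromosome 12 among the 281 expressed miRNAs was not counted. For miR-10a the correlation with miR-10b was -0.075, against 0.53 for deviations from the group means, so the pair ran apart between groups and not within them. Its closest were miR-324-5p (0.823), miR-363 (0.809) and miR-130b (0.798).

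Markers of the cell types in the nerve moved alongside. The 3 Schwann cell miRNAs (miR-338-3p, miR-204 and miR-138) were all called lower in P4 mutants, with a median difference of -2.04 and unnormalized summed signals of 4923 to 5627 in controls against 231.7 to 462.0 in mutants. The study had picked all 3 from these same arrays as lower in P4 mutants and higher with age in controls. Their P4 calls were thus fixed in advance and are no independent evidence. At E17 none of the 3 was called. Of 4 expressed fibroblast and smooth muscle miRNAs, miR-199a-3p, miR-199a-5p and miR-214 were called higher in mutants at P4 and at E17 and lower with age in controls on the normalized scale, the directions of miR-196a at P4 and with age. Some of these calls rest on dimmer probes. The brightest probes of miR-199a-3p and miR-214 were not called at E17 (limma adjusted p = 0.176 and 0.142), nor that of miR-199a-3p with age (limma adjusted p = 0.0520). The fourth, miR-143, was not called in these comparisons, with 0.08 at P4 (limma adjusted p = 0.635), 0.05 at E17 (limma adjusted p = 0.827) and, opposite to miR-196a, 0.44 with age in controls (limma adjusted p = 0.0098). The unnormalized sums of this list overlapped between the genotypes, at 4139 to 5658 in P4 controls and 4020 to 7293 in P4 mutants, and with age in controls they were higher at P4, against 1781 to 3368 at E17. At P4 the lists of other cells gave 1 of 3 called higher for erythroid cells, 1 of 3 for leukocytes and 1 of 2 for endothelial cells, 0 of 4 for skeletal muscle with a median of 0.70, 1 of 4 lower for neurons and 0 of 1 for hepatocytes. The part of cell composition in the values of the Hox cluster miRNAs was not tested.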

How the data were processed

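Per the labels, miRNAs were measured in sciatic nerves on 16 single-colour Agilent arrays. The deposited spot intensities come from Agilent Feature Extraction 10.5.1.1, not normalized across arrays. A table of quantile-normalized probe intensities was deposited too. Per the file headers, detection and outlier flags are 0 or 1, a category other than a measurement.

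The log2 median signal was quantile normalized over 13000 non-control spots and averaged per probe without outlier spots. Kept were miRNAs that the software detected on a share of 0.5 or more of the arrays in some group. Comparisons used limma 3.58.1 (R 4.3.3, lmFit and eBayes, all 16 arrays). Ratios and summed signals used exact permutation tests over 70 assignments. The mean signal column planned for normexp (offset 50) is not used here, so median signals were taken. Names and sequences came from RefSeq (GRCm38.p6). The named miRNAs are all 4 members, their relatives by sequence and cluster, the 8 cell type lists, and the 3 miRNAs most like each member. Members and lists were chosen with earlier results of these data known. Steps were tested on simulated data. Figures were drawn with matplotlib. Per the methods the animals were littermate pairs, but the labels tie no replicate number to a pair, and the number of arrays limits the precision. Alternatives covered signal, background correction, normalization, filter, limits, test (the methods' t-test), probes, samples, array weights, blocks and each array left out.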

Additional observations from a re-analysis of the deposited data

Results flagged for a closer look

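In P4 mutants, replicate 3 had a log2 ratio of miR-10a to miR-10b of -0.83, apart from the other 3 mutants, by a test of its gap against the range of the group. Of the 24 sets of 4 arrays examined in this way, 1 was marked, and chance marks about 1 in 20. Without this array the difference between mutants and controls at P4 was -0.90. The same array had the lowest signal of its group for all 4 miRNAs.

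For the second probes of miR-10b and miR-196b, the effect of genotype differed between P4 and E17, by 0.44 (limma adjusted p = 0.0439) and 0.21 (limma adjusted p = 0.0229). Both were under the size limit of 0.5. The brightest probes gave 0.44 and 0.38, with limma adjusted p-values of 0.106 and 0.112.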

How the results depend on the processing

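The number of Hox cluster miRNAs called moved with size limits and scaling. At P4, where miR-196a was called, 4 were called with no limit on size. With no limit, 83 of the 281 expressed miRNAs were called higher and 85 lower. A limit of 1 gave 0. Background-subtracted signals gave 3 (miR-10a, miR-196a and miR-196b), and the authors' deposited intensities gave 2 (miR-10a and miR-196a). The 75th percentile of detected probes, array weights or gene signal scaled to its sum also gave 3 (miR-10b, miR-196a and miR-196b). Without normalization, with the 75th percentile of all probes or with unnormalized gene signal, the 1 called was miR-10a, and miR-196a was at 0.0064, 0.12 and 0.061. At E17, 1 (miR-10a) was called with no limit, the 75th percentile of all probes or scaled gene signal. With age in controls, 0 were called with normexp, a limit of 1 or the mean over probes. Background-subtracted signals or the 75th percentile of detected probes gave 2, and no limit or scaled gene signal gave 3. All 4 were called higher without normalization or with unnormalized gene signal, where 161 and 184 of the 281 expressed miRNAs were too. With age in mutants, 2 were called without normalization or with the 75th percentile of all probes and 3 with unnormalized gene signal. For the interaction, 1 was called without normalization (miR-10a) and 1 with detection required on every array of a group, the deposited intensities or the slide column as a block (miR-196a), 2 with array weights or no limit, and 3 with the 75th percentile of detected probes or scaled gene signal. Gene signals, scaled or not, and the slide column were added after seeing the data.

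Leaving out each array in turn gave 1 to 3 calls at P4 (3 without mutant replicate 3, 2 without control replicate 2), 0 at E17, 0 to 1 with age in controls (0 without E17 control replicate 3), 0 with age in mutants and 0 to 2 for the interaction (2 without P4 mutant replicate 3, 1 without E17 mutant replicate 1, E17 control replicate 1 or 4, or P4 control replicate 2).

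Signs changed in these cases. Without normalization, mutants against controls gave -0.25 for miR-10b and -0.075 for miR-196b at P4 and -0.051 for miR-10b at E17. The ages in controls gave 0.96, 0.78, 0.55 and 0.54 for miR-10a, miR-10b, miR-196a and miR-196b, the ages in mutants 0.24 for miR-10a and 0.50 for miR-196a, and the interaction -0.72, -0.20, -0.048 and -0.15 for the 4. With the 75th percentile of all probes, miR-10b was at -0.14 at P4, and miR-10b, miR-196a and miR-196b at -0.32, -0.22 and -0.20 at E17. The ages in controls gave 0.59, 0.41, 0.18 and 0.17 for the 4, the ages in mutants 0.26 for miR-10a and 0.51 for miR-196a, and the interaction -0.34 for miR-10a. With unnormalized gene signal, miR-10b and miR-196b were at -0.28 and -0.087 at P4 and at -0.18 and -0.071 at E17. The ages in controls gave 1.13, 0.86, 0.64 and 0.63 for the 4, the ages in mutants 0.43 for miR-10a and 0.69 for miR-196a, and the interaction -0.70, -0.11 and -0.016 for miR-10a, miR-10b and miR-196b. Scaling also moved the median of all tested probes, from 0.02 to 0.79 at P4 with the 75th percentile of detected probes and from -0.0029 to 0.42 with age in controls without normalization. The split of all calls at P4, 29 higher and 30 lower, became 203 and 22 with the former, 1 and 89 without normalization and 2 and 75 with the 75th percentile of all probes.

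Other sign changes were near 0. With age in mutants, background-subtracted signals gave -0.023 for miR-10b and -0.039 for miR-196b, the 75th percentile of detected probes 0.090 for miR-196a and -0.020 for miR-196b, scaled gene signal 0.018 and -0.062 for the same miRNAs, and miR-196a was at 0.041 with array weights, 0.0016 with the mean over probes and 0.097 with the deposited intensities. At E17 miR-10b was at -0.046 with the mean over probes and -0.0039 with scaled gene signal. The interaction of miR-10a was -0.0031 with array weights and -0.0013 with the deposited intensities. Leaving out an array moved the age difference in mutants between -0.030 and 0.21 for miR-10b, -0.12 and 0.065 for miR-196a and -0.049 and 0.071 for miR-196b, the E17 difference of miR-196b between -0.0095 and 0.16, and the interaction of miR-10a between -0.063 and 0.14. The ratio of miR-196a to miR-196b changed sign without normalization at E17 (-0.024), with age in controls (0.0053) and with age in mutants (0.11), with the deposited intensities with age in mutants (0.071), and between -0.084 and 0.0032 there when an array was left out.

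Taking the median log2 signal of expressed miRNAs in place of the summed signal turned the E17 genotype difference from -0.17 to 0.13 (neither past the limit), took the age difference in mutants from 0.67 to 0.16, no longer past the limit, and shrank the P4 genotype difference from -0.96 to -0.33 and the age difference in controls from 1.46 to 0.62, both still at an exact permutation p of 0.0286. The cause of these changes was not tested. A pairing of the samples by replicate number was not established, since same-number correlations of deviations ran from -0.52 to 0.09 at E17 and were 0.17, -0.28, 0.46 and 0.16 at P4, and the labels do not say which animals were littermates. With the replicate block, 1 Hox cluster miRNA was called at P4, 0 at E17, 1 with age in controls, 0 with age in mutants and 0 for the interaction, and the adjusted p of miR-10a at E17 was 0.0552. All 4 members were well above background on every array, and the 4 arrays of a group limit the precision.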

Other observations

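The passenger strands miR-10a* and miR-10b* gave signal on a subset of the P4 arrays. The unnormalized signal of miR-10a* was 27.8 and 28.8 in P4 control replicates 1 and 3 and 7.42 and 5.51 in P4 mutant replicates 1 and 3. It was below 0 in the remaining 4 P4 arrays and at most 0.762 at E17. miR-10b* was 18.5 and 20.7 in the same 2 controls, 5.23 and 3.95 in the same 2 mutants and below 0 elsewhere. These 4 arrays are those in column 2 of the P4 slide, and 37 of the 650 names were higher on all of them than on every array of column 1, whereas 12 were lower on all of them. The part of the slide column in these values was not tested. The main strands miR-10a and miR-10b did not separate by column at P4. For miR-196a, both column 1 arrays lay above both column 2 arrays within each of the 4 groups. In E17 controls these were 8.82 and 9.14 against 8.51 and 8.60. At P4 they were 8.19 and 8.28 against 8.08 and 8.03 in controls. In P4 mutants they were 9.14 and 8.98 against 8.87 and 8.59. miR-196b showed this order in all groups except P4 controls.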
